A study of Homo sapiens with 7 samples.

Results

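ChIP-seq in Kasumi-1 cells placed 3013 AML1-ETO sites on an AML1 peak but on no peak of N-CoR or p300. They were chosen by position. The 100 bp window of the AML1-ETO summit had to share at least 1 bp with an AML1 window and none with a window of either co-regulator. They make up 16.7% of the 18087 AML1-ETO windows (exact Clopper-Pearson 95% interval 16.1 to 17.2%) and 36.1% of the 8355 that overlap AML1 (35.0 to 37.1%). Kasumi-1 is an established myeloblast line from peripheral blood with the t(8;21) translocation, in which AML1-ETO and AML1 are both present. The cells were fixed in log-phase growth, the labels name no treatment, and a single line cannot stand for t(8;21) leukemia in general. The AML1 antibody recognizes the C-terminus, which the fusion lacks, and the fusion was recovered with an antibody against its ETO portion, which would recognize ETO itself as well. The N-CoR, p300 and H3K4me3 libraries came from the same line.

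AML1 (RUNX1) is a transcription factor of blood cell development that binds DNA through its Runt homology domain. The t(8;21) fusion keeps that domain and joins it to ETO (RUNX1T1), a protein that recruits co-repressors. N-CoR is a co-repressor that brings histone deacetylases to DNA. The acetyltransferase p300 is a co-activator, and H3K4me3 is a histone mark of active or poised promoters. A site without a co-regulator is here a site without a called peak, and enrichment below the authors' threshold of p < 1e-20 cannot be seen in the lists. Each list comes from pooled replicates, so no replicate error can be given, and the intervals cover counting error over sites only.

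The reference sequences of 8 of these sites are given to show what the windows hold. All are on the plus strand of GRCh37, 5′ to 3′, and carry the number of the site in the AML1-ETO list. Capitals mark the Runx consensus TGTGGT or the PU.1 consensus GAGGAA on either strand, so that ACCACA is a Runx match on the minus strand and TTCCTC a PU.1 match. The first 5 are among the lowest-numbered sites that do not touch an exon, and they span windows with and without either consensus. The last 3, near genes of myeloid cells, were chosen after their sequences had been seen.
TLN1 site 286, chr9:35729835-35729934: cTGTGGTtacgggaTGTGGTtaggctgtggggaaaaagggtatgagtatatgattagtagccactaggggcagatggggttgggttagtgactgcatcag
MYEOV site 254, chr11:69064927-69065026: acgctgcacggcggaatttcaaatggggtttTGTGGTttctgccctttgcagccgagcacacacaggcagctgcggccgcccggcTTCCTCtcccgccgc
SVIP site 330, chr11:22851551-22851650: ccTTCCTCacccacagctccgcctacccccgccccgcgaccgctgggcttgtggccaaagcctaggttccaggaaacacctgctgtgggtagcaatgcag
TESC site 8, chr12:117501229-117501328: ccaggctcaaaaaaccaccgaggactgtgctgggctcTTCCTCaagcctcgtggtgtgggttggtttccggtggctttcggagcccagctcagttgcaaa
ZZZ3 site 673, chr1:78149174-78149273: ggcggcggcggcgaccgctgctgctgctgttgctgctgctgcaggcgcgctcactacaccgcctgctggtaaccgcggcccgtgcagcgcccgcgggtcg
KIT site 8695, chr4:55557770-55557869: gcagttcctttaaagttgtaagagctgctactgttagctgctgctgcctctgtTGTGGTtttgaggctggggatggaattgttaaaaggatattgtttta
FGR site 1653, chr1:27944952-27945051: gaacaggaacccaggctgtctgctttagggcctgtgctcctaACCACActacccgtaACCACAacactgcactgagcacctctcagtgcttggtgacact
CXCR4 site 5901, chr2:137076909-137077008: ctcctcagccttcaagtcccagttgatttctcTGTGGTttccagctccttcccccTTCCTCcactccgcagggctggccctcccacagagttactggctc

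TLN1 encodes talin, which links integrins to the actin cytoskeleton, and its site lies in an intron, 2216 bp from a transcription start, with 2 Runx matches. The MYEOV site, also intronic, holds a Runx and a PU.1 match. The SVIP site, 244 bp from a start, holds a PU.1 match only, as does the intronic TESC site. The ZZZ3 site is 120 bp upstream of a start, has 76% G+C and holds neither. The KIT site is in an intron of this stem cell factor receptor gene. The site in FGR, a Src-family kinase gene, has 2 Runx matches. The CXCR4 site, with both consensus sequences, lies 200212 bp from the start of this chemokine receptor gene, which is its nearest protein-coding gene.

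The sites without a co-regulator were rich in the Runx consensus. TGTGGT was found within 50 bp of the summit in 1586 of the 3013 (52.6%, 50.8 to 54.4%), beside 31.3% of all AML1-ETO windows. In the sequence 1000 bp to either side of the same summits the share was 6.61%. The 5342 AML1 and AML1-ETO sites with N-CoR or p300, called co-regulator-bound below, held it in 34.6% (33.3 to 35.9%). The difference was 18.1 percentage points (Newcombe interval 15.9 to 20.2), and the share was higher on 23 of 23 chromosomes. The 6936 AML1-ETO sites with no AML1, N-CoR or p300 peak, called AML1-ETO alone below, held it in 28.4%, a difference of 24.2 points (22.1 to 26.3) that was again of the same sign on 23 of 23 chromosomes. Among co-regulator-bound sites, those with N-CoR only came closest, with 43.6%. The sites without a co-regulator exceeded them by 9.07 points (6.51 to 11.6), on 21 of 23 chromosomes. Sites with both N-CoR and p300 held it in 25.9% and the 379 with p300 only in 16.1%. Leaving out any 1 chromosome kept the share of the sites without a co-regulator between 52.4 and 53.3%.

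**Figure D1:**
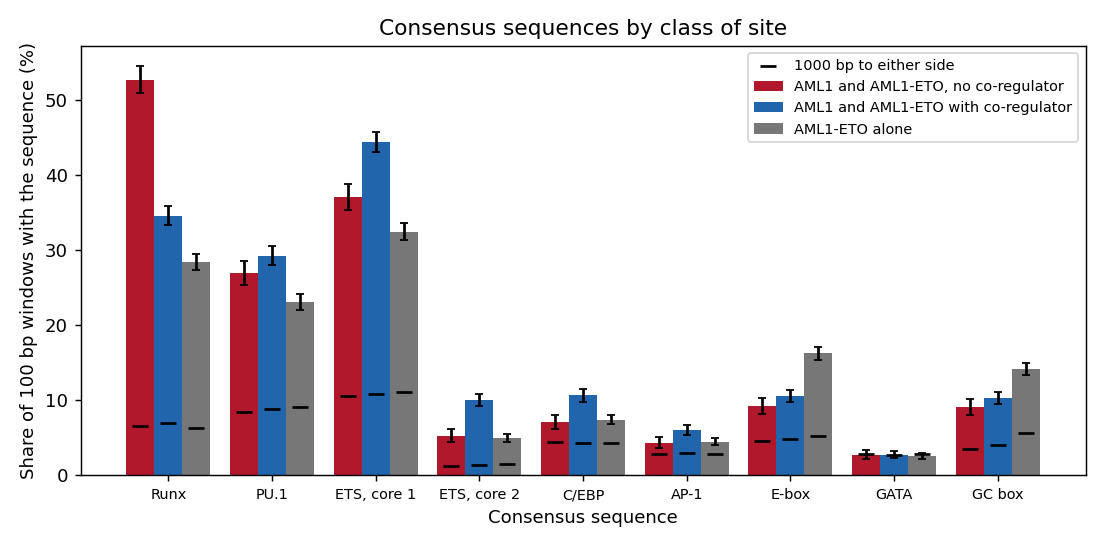
Share of 100 bp windows (%) that hold each consensus, for sites of AML1 and AML1-ETO without a co-regulator (red), with one (blue) and of AML1-ETO alone (grey). Error bars are exact 95% intervals and black dashes give the share 1000 bp to either side; ETS core 1 is AGGAAG and core 2 is CCGGAA. The red Runx bar, at 52.6%, stands above the other Runx bars, at 34.6 and 28.4%.

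Runx matches were also more often multiple. Windows with 2 or more made up 10.95% of the sites without a co-regulator (9.86 to 12.1%), 4.31% of the co-regulator-bound and 6.25% of those with N-CoR only. Over all AML1-ETO windows the share was 4.77%. With TGCGGT counted as well, Runx was in 65.4% of sites without a co-regulator and 44.2% of co-regulator-bound sites, beside 39.3% of all AML1-ETO windows. The base after TGTGGT was T in 61.2% of the 1962 matches (59.0 to 63.3%), against 54.0% of 2083 in co-regulator-bound windows (51.8 to 56.2%). TGTGGTTT made up 34.4% (32.3 to 36.5%) against 28.3% (26.4 to 30.3%). Over all AML1-ETO windows, T followed in 51.8% of 6642 matches and TGTGGTTT made up 27.1%. Where a single match stood near both summits, it was a median 23.5 bp from the AML1-ETO summit and 19.5 bp from the AML1 summit. It was nearer to the AML1 summit in 675 windows and nearer to the AML1-ETO summit in 564. Co-regulator-bound sites went the same way, with 1062 and 774 windows. Their medians were 21.5 bp from the AML1 summit and 28.5 bp from the AML1-ETO summit.

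**Figure D2:**
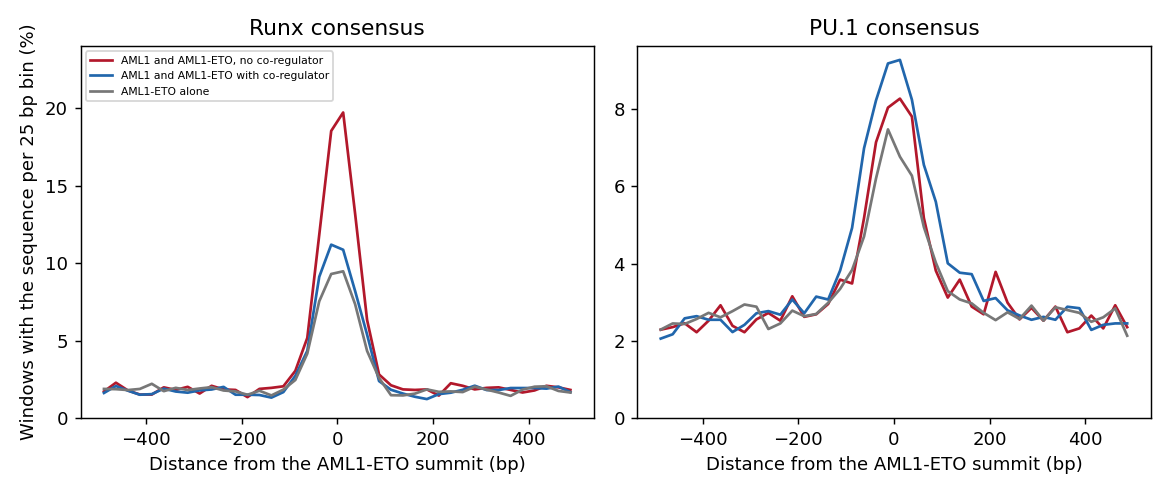
Share of windows (%) with the Runx (left) and PU.1 (right) consensus in 25 bp bins along the distance from the AML1-ETO summit (bp), for the same 3 classes of site. Both sequences peak at the summit; the red Runx curve reaches the highest level and within 50 bp of the summit the blue PU.1 curve is above the red one.

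The Runx share depended on base composition and on H3K4me3, and the order of the classes held within each layer. In windows under 45% G+C it was 73.0% of 577 sites without a co-regulator, 53.2% of co-regulator-bound sites and 47.3% of AML1-ETO alone. In windows of 65% G+C or more the shares were 16.6% of 416, 10.1% and 9.28%. Away from H3K4me3, with no summit of the mark within 1000 bp, they were 60.0% (58.0 to 62.0%), 40.3% and 35.2%. Near H3K4me3 they were 21.7% (18.4 to 25.3%), 16.7% (14.7 to 18.9%) and 10.8%, and there the intervals of the first 2 classes overlap.

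The PU.1 consensus GAGGAA, bound by the ETS factor PU.1 of myeloid and B cells, was in 26.9% of the sites without a co-regulator (25.3 to 28.5%), beside 26% of all AML1-ETO windows. Co-regulator-bound sites held it in 29.2%, a difference of -2.32 points (-4.31 to -0.31), and AML1-ETO alone in 23.1%, a difference of 3.85 points (2.00 to 5.73). The interval of the first difference included 0 without chromosome 6 (-1.87, -3.92 to 0.20) or chromosome 17 (-1.97, -4.01 to 0.11), and without the sites that had a co-regulator summit within 1000 bp (-0.46, -2.59 to 1.70). With windows of 250 bp to either side it turned to 0.55 points (-1.46 to 2.59). The excess over AML1-ETO alone was not seen near H3K4me3 (13.3 against 13.2%) or at 55 to 65% G+C (26.3 against 26.6%), and under 45% G+C the shares were 27.9 and 27.2%. In parts 3 and 5 of 5 equal parts of the list, the PU.1 shares were 28.7 and 24.4%, against 28.4 and 24.1% at co-regulator-bound sites. Among sites without a co-regulator, it was in 28.8% of those with Runx (26.6 to 31.1%) and 24.8% of those without (22.6 to 27.1%). Both sequences stood together in 15.2%, Runx without PU.1 in 37.5%, PU.1 without Runx in 11.7% and neither in 35.6%. In co-regulator-bound sites both stood together in 9.85%, and over all AML1-ETO windows in 7.92%. Sites with N-CoR only came closest, with 13.25% (12.02 to 14.56%). That interval overlaps the one of the sites without a co-regulator (13.9 to 16.5%). Sites with N-CoR and p300 held both in 6.89% and those with p300 only in 1.055%. The 322 windows with 1 match of each had a median of 28.5 bp between the matches, which were on the same strand in 46.3% (40.7 to 51.9%).

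Over the whole list, other ETS sequences were less frequent than at co-regulator-bound sites as a whole. Those with p300 only went the other way for several sequences, with AGGAAG in 19.5%, PU.1 in 11.3%, C/EBP in 3.17% and AP-1 in 1.06%. AGGAAG, which shares letters with GAGGAA and can overlap it, was in 37.0% against 44.4%, a difference of -7.33 points (-9.49 to -5.14), lower on 20 of 23 chromosomes. Its share over all AML1-ETO windows was 37.5% and at AML1-ETO alone 32.4%. In the last 2 of 5 equal parts of the list it was in 37.3 and 34.2%, against 35.9 and 31.8% at co-regulator-bound sites, with overlapping intervals. CCGGAA was in 5.28% against 10.0%, lower on 23 of 23, with 5.003% at AML1-ETO alone and 7.35% over all AML1-ETO windows. The C/EBP sequence TTGCNNAA, of a factor family of granulocyte maturation, was in 7.07% against 10.7%, a difference of -3.58 points (-4.80 to -2.33). The AP-1 sequence TGANTCA was in 4.38% against 6.03%. Over all AML1-ETO windows the C/EBP and AP-1 shares were 8.75 and 5.19%. At AML1-ETO alone they were 7.41 and 4.50%, and both differences had intervals that included 0. GATAAG, the sequence of the GATA factors, was at 2.72%, with 2.71% in co-regulator-bound sites, 2.54% over all AML1-ETO windows and 2.81% in the flanking sequence. The E-box CAGCTG, in 9.19%, and the GC box CCGCCC, in 9.06%, were lower than the 16.2% and 14.1% of AML1-ETO alone, the E-box on 23 of 23 chromosomes and the GC box on 21. Co-regulator-bound sites held them in 10.5% and 10.3%, and all AML1-ETO windows in 13.2% and 12.5%. For the GC box that difference was -1.24 points (-2.52 to 0.10), and against sites with N-CoR only it was 2.49 points (1.11 to 3.86). The short Myb core AACNG was in 54.2%, beside 40.5% in the flanking sequence, 51.9% of all AML1-ETO windows and 55.6% of co-regulator-bound sites. All were searched on both strands, and a match shows letters in the window, not a bound factor.

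Most of these sites lay away from promoters. A transcription start was within 1000 bp of 830 of them (27.5%, 26.0 to 29.2%), beside 34.5% of all AML1-ETO windows. The share was 31.5% at co-regulator-bound sites and 35.4% at AML1-ETO alone, differences of -3.92 points (-5.93 to -1.88) and -7.85 points (-9.78 to -5.88). With windows of 25 bp to either side the first was -1.24 points (-3.33 to 0.86), an interval that includes 0, and among the first 5000 windows of the list it was 0.53 (-3.03 to 4.29). Neither direction held in every layer of base composition. At 55 to 65% G+C the promoter share was 36.3% (33.01 to 39.7%), against 35.5% at co-regulator-bound sites and 30.8% at AML1-ETO alone (28.8 to 32.7%). At 65% G+C or more the shares were 76.0, 73.3 and 73.7%, with overlapping intervals. Sites with N-CoR only had fewer, at 22.3%, and those with p300 only many more, at 78.1%. With starts of protein-coding genes alone, 662 sites remained (22.0%). Another 44.2% were in introns, 4.02% in exons, 7.20% within 10 kb upstream of a gene and 17.1% intergenic. Over all AML1-ETO windows these 4 shares were 39.9, 4.14, 7.38 and 14.1%. The median distance to a start was 5296 bp, with 692 and 16510 bp as quartiles, whereas it was 3858 bp at co-regulator-bound sites and 3090 bp at AML1-ETO alone. Sites with N-CoR only lay farther away, at a median of 5848 bp.

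**Figure D3:**
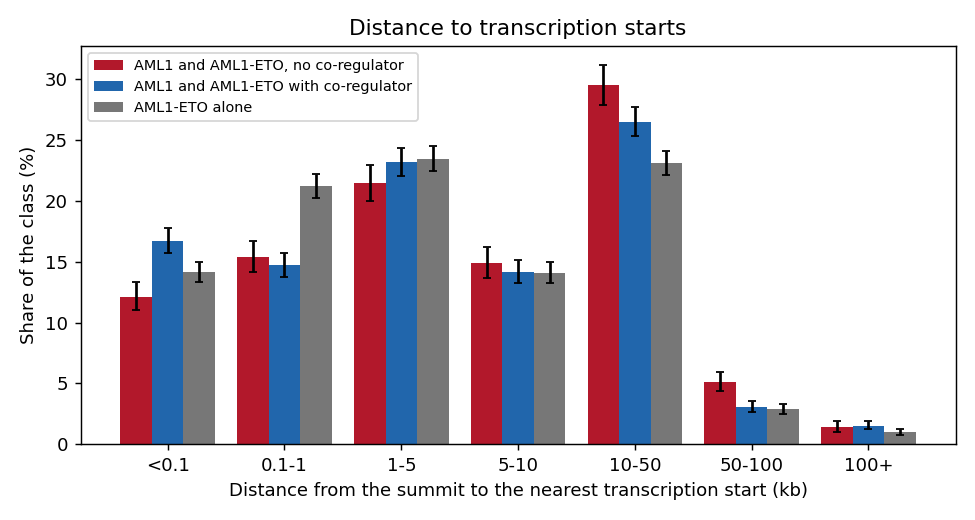
Share of each class (%) by distance from the AML1-ETO summit to the nearest transcription start (kb), with exact 95% intervals. The red bars, for sites without a co-regulator, are below those of the other classes under 0.1 kb, at 12.1%, and above them from 10 to 50 kb, at 29.5%.

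H3K4me3 was near a minority of them. A summit of the mark lay within 1000 bp of 580 sites (19.2%, 17.9 to 20.7%), beside 27.4% of all AML1-ETO windows. Co-regulator-bound sites had it in 24.4%, a difference of -5.14 points (-6.94 to -3.30), and AML1-ETO alone in 27.8%, a difference of -8.56 points (-10.3 to -6.78) that was negative on 23 of 23 chromosomes. With windows of 25 bp to either side the first was -1.78 points (-3.64 to 0.10). By base composition, the share was 24.4% at 55 to 65% G+C (21.5 to 27.5%), against 27.2% at co-regulator-bound sites and 19.5% at AML1-ETO alone (17.9 to 21.2%). At 45 to 55% G+C the shares were 7.24, 8.70 and 6.82%, so the lower share than at AML1-ETO alone was not seen in these layers. The co-regulator-bound sites were mixed, with 12.6% near H3K4me3 for N-CoR only, 30.2% for N-CoR and p300 and 79.7% for p300 only. Of the 830 sites near a start, 497 were near H3K4me3 (59.9%, 56.5 to 63.2%), a share of 63.8% at co-regulator-bound sites (61.4 to 66.1%). At AML1-ETO alone it was 66.6% (64.7 to 68.5%). Where H3K4me3 was within 1000 bp, its summit was a median 328 bp away.

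The distances to the co-regulators, which the rule used, are given as a description. No N-CoR or p300 summit was closer than 1000 bp at 2526 sites (83.8%), and the median distance was 58382 bp to N-CoR and 53173 bp to p300. The other 487 had one between 100 and 999 bp away, 138 of them below 150 bp. The sites just inside the rule had an N-CoR summit at 100 bp, with GRK3, MYEOV, TBC1D16 and VPS29 as nearest coding genes. A site in an intron of CCND3, a cyclin gene, had it at 101 bp. The start of GRK3 was 163689 bp away, that of MYEOV 74639 bp, that of TBC1D16 7706 bp and that of VPS29 15 bp. Just outside it were sites with DRAM1 and VGLL3 as nearest coding genes, with p300 at 99 bp. Others there were nearest to FAM193A and OTULIN, with p300 at 98 bp, and GRB7, with N-CoR at 98 bp. The start of VGLL3 was 98001 bp away and that of OTULIN 134 bp.

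The 487 sites with a co-regulator summit nearby differed from the rest of the class. A start was within 1000 bp of 71.0% of them (66.8 to 75.04%), against 19.2% of the 2526 others (17.6 to 20.8%). H3K4me3 was near 67.6% against 9.94%. Runx was in 29.0% (24.96 to 33.2%) against 57.2% (55.3 to 59.1%), and PU.1 in 17.2% (14.0 to 20.9%) against 28.8% (27.02 to 30.6%). The distance to a co-regulator and closeness to a promoter move together here, and their separate part in the motif shares was not tested.

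The AML1 and AML1-ETO summits of a site were a median 21 bp apart, and 20 bp apart at co-regulator-bound sites. The sites without a co-regulator were more isolated than the co-regulator-bound sites as a whole. Another AML1-ETO summit lay within 10 kb of 29.4% (27.8 to 31.04%), against 48.5% of co-regulator-bound sites (47.2 to 49.9%) and 44.7% of AML1-ETO alone (43.5 to 45.9%). The median distance to the next AML1-ETO summit was 30197 bp, against 10986 and 13942 bp, but the sites with p300 only were close, at 28574 bp. By chromosome, they made up from 11.5% of the AML1-ETO windows on chromosome 16 to 21.5% on chromosome 4.

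The sites without a co-regulator were most frequent in the fourth of 10 equal parts of the deposited AML1-ETO order, where both comparison classes were more frequent still. The list carries no score and its order is not explained in the sources used here, so a place in it is not a measured strength. Their median number was 8614, at 47.6% of the list, while that of co-regulator-bound sites was 3524 and that of AML1-ETO alone 12416. Among the co-regulator-bound, the sites with p300 only had a similar median, 9409. The sites without a co-regulator made up 5.58% of part 1 (4.57 to 6.74%), 23.2% of part 4 (21.3 to 25.2%) and 11.4% of part 10 (10.0 to 13.0%). Among windows with AML1, their share rose from 5.99% in part 1 to 65.6% in part 9 and 64.7% in part 10. Their AML1 peaks had a median number of 6692, at 57.2% of the AML1 list. In part 1, 43 of the 101 sites had a co-regulator summit between 100 and 999 bp away (42.6%, 32.8 to 52.8%), and in the other parts this share was between 12.6 and 18.3%.

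**Figure D4:**
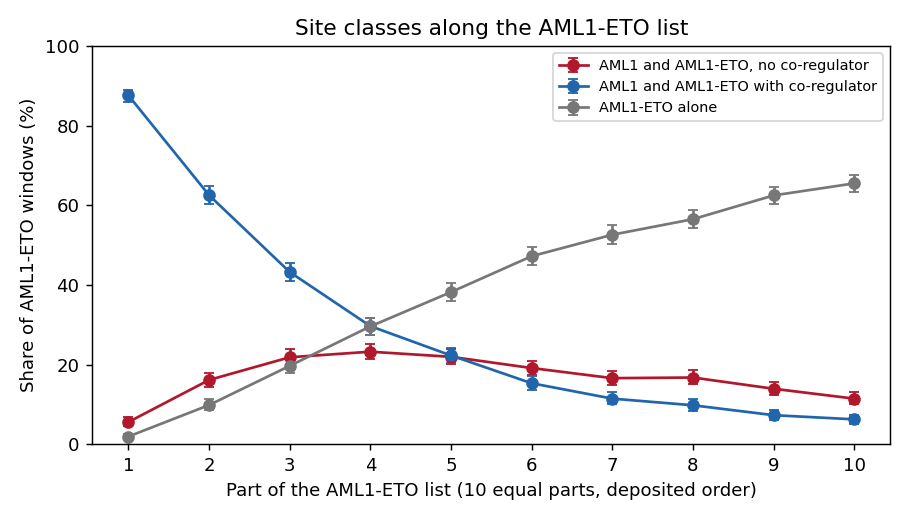
Share of AML1-ETO windows (%) in each of 10 equal parts of the deposited AML1-ETO list that belongs to each of 3 classes, with exact 95% intervals. Sites without a co-regulator (red) peak at 23.2% in part 4, co-regulator-bound sites (blue) fall from 87.6 to 6.25%, and AML1-ETO alone (grey) rises from 1.94 to 65.5%.

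The Runx share of the sites without a co-regulator was between 48.1 and 55.7% along this order. In 5 equal parts of the list it was 52.2, 55.6, 55.7, 48.6 and 48.1%. That of co-regulator-bound sites was 37.8, 34.4, 30.1, 25.8 and 26.1%, with intervals below those of the first class in each part. The share near H3K4me3 was 19.6% in part 1 of 5 and 23.3% in part 5, while at co-regulator-bound sites it was 18.2 and 53.9%. The promoter share behaved alike, at 27.2 and 28.3% against 27.1 and 55.9%. Promoter and H3K4me3 shares lower than at co-regulator-bound sites were thus not seen in part 1 of 5, where the intervals overlap. At AML1-ETO alone the shares in part 1 were higher, at 35.2% (28.8 to 42.0%) and 26.8% (20.9 to 33.2%), also with overlapping intervals.

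Several of the lowest numbers belonged to sites with a co-regulator peak close by. TESC number 8 had N-CoR at 114 bp and p300 at 162 bp, and NUP210 number 482, near a nuclear pore gene, had them at 115 and 230 bp. MYEOV number 254 and CELF2 number 363 also had both within 275 bp. TLN1 number 286 was the exception among the 5 lowest-numbered distal sites, with 1535 bp to N-CoR and 2317 bp to p300. Near starts, the lowest numbers were at SVIP (330), RHBDF1 (358), DAD1 (620), ZZZ3 (673) and SLC29A3 (732). At SVIP and RHBDF1 the nearest co-regulator summits were 1203896 and 62386 bp away, whereas DAD1 had N-CoR at 109 bp and ZZZ3 p300 at 103 bp. The start near the DAD1 site belonged to another transcript, 86 bp away, and that of DAD1 was 18541 bp away.

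The nearest protein-coding genes of the 3013 sites numbered 2493, or 12.4% of the 20136 annotated. Of these genes, 2074 had 1 such site, 339 had 2 and 80 had 3 or more. For the genes, windows with a co-regulator are the 8138 AML1-ETO windows with N-CoR or p300, with or without AML1. For 1093 genes (43.8%) such a window was also nearest to the gene, a share that was 46.7% for the genes nearest to AML1-ETO alone. For 996 (39.9%), all AML1-ETO windows assigned to the gene were of this class. Genes with a single AML1-ETO window are counted here as well. No such share was computed for another class, so it cannot be read as a trait of this class. The nearest gene is a matter of position and need not be the one regulated. The genes with the most such sites were DIP2C, AUTS2, NR2F2, MEF2C, PACSIN2 and STIM2, with 5 each, and PLXNA4, TRIB1, PARD3 and OTOL1, with 4 each. AML1-ETO windows of any class numbered 18 at AUTS2, 15 at TRIB1, 12 at MEF2C and PACSIN2 and 10 at PARD3. They numbered 9 at NR2F2 and STIM2, 8 at PLXNA4 and 5 at DIP2C and OTOL1. Among these genes, MEF2C encodes a transcription factor of muscle and blood cells, NR2F2 an orphan nuclear receptor and PACSIN2 a protein that bends membranes. STIM2 encodes a calcium sensor and TRIB1 a pseudokinase that promotes the loss of C/EBPα.

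DIP2C had 5 AML1-ETO windows in all, each without an overlapping co-regulator window and in its introns, although number 8860 had a p300 summit at 260 bp. The one with number 13030 was 479 bp from a start, with H3K4me3 at 221 bp and a Runx match. The MEF2C sites ranged from number 13982, 9 bp from a start with H3K4me3 at 159 bp, to number 11242, 553209 bp from the nearest coding start, which is that of MEF2C. The NR2F2 and OTOL1 sites lay between 151784 and 856790 bp from the start of the gene.

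Among genes of blood transcription factors, 10 of 27 had a site without a co-regulator nearest to them, or 37.0% (19.4 to 57.6%), beside 12.4% of all coding genes. An AML1-ETO window with N-CoR or p300 was nearest to 22 of them, and any AML1-ETO window to 25 (92.6%), beside 41.0% of all coding genes. The 10 genes were GFI1, IRF8, KLF4, MYB, RUNX1, RUNX2, RUNX3, FLI1, ID2 and IKZF1. Some of their sites were far from the gene's start, that of KLF4 at 145499 bp and those of RUNX3 at 32685 and 130720 bp. The MYB site, at 22 bp from a start of this proto-oncogene, had 2 Runx matches, but p300 at 103 and N-CoR at 106 bp. The IRF8 site was 132 bp from the start of this regulator of monocyte fate, with N-CoR at 14449 bp and p300 at 14458 bp. RUNX2 had 4 sites among 9 AML1-ETO windows, and the AML1 gene RUNX1 had 3 among 26. Of the RUNX1 sites, number 12107, 72910 bp from a start, held Runx and had its nearest co-regulator at 83493 bp.

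Surface receptors and markers of myeloid cells had 11 of 23 genes (47.8%, 26.8 to 69.4%), beside 12.4% of all coding genes. A window with N-CoR or p300 was nearest to 17 of the 23. Any AML1-ETO window was nearest to 21 (91.3%), beside 41.0% of all coding genes. A further symbol of the 24 listed was not matched in the annotation. CSF1R, the receptor of macrophage colony-stimulating factor, had number 15242 at 7 bp from a start, with 1 Runx and 2 PU.1 matches, N-CoR at 3976 bp and p300 at 4017 bp. KIT had 4 sites among 10 AML1-ETO windows. Of the 4, number 3756 was 49 bp from its start, with p300 at 612 bp and H3K4me3 at 431 bp. The site of ITGAL, an integrin gene, was 11 bp from the start, with a PU.1 match and N-CoR at 13751 bp as the nearest co-regulator. The other genes were CD38, CD48, ITGAM, ITGA4, CXCR4, CD44, PTPRC and LAPTM5. Their sites lay from 5371 bp (ITGAM) to 337607 bp (PTPRC) from a start of the gene.

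Myeloid signalling genes had 11 of 26 (42.3%, 23.4 to 63.1%), beside 12.4% of all coding genes. A window with N-CoR or p300 was nearest to 19 of the 26. Any AML1-ETO window was nearest to 23 (88.5%), beside 41.0% of all coding genes. The PIK3CD site, number 5999, lay 264 bp from a start of this phosphoinositide kinase gene, with a Runx match and N-CoR at 12838 bp. That of RPS6KA1, a ribosomal S6 kinase gene, lay 127 bp from a start, with Runx and PU.1, p300 at 3300 bp and N-CoR at 3689 bp. LYN, FGR, LCP2, RAC2, DOK2, PIK3CG, SPRY1, STAT5B and JAK1 had the others, from 488 bp (STAT5B) to 207273 bp (SPRY1) from a start of the gene. Granule and antimicrobial proteins had 5 of 16, namely BPI, S100A8, CST7, RNASE2 and RNASE3, or 31.2% (11.02 to 58.7%), beside 12.4% of all coding genes. An AML1-ETO window with N-CoR or p300 was nearest to 7 of the 16 and any AML1-ETO window to 11 (68.75%), beside 41.0% of all coding genes. The CST7 site was 209 bp from the start of this cystatin gene, with a PU.1 match and p300 at 43707 bp as the nearest co-regulator.

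Co-repressor and co-activator genes had 8 of 20 (40%, 19.1 to 63.95%), beside 12.4% of all coding genes. An AML1-ETO window with N-CoR or p300 was also nearest to 8 of the 20. Genes with a site without a co-regulator included SIN3B, HDAC1 and KAT2B. The SIN3B site was 76 bp from a start, with Runx and PU.1. Any AML1-ETO window was nearest to 14 of the 20 (70%), beside 41.0% of all coding genes. Cell cycle and apoptosis genes had 2 of 20, CCND2 and CCND3, and lymphoid genes 2 of 20, ZAP70 and BCL11B, or 10% each beside 12.4% of all coding genes. Any AML1-ETO window was nearest to 7 and 11 of them (35 and 55%), beside 41.0% of all coding genes. Liver and neuron genes had 1 of 20, CAMK2A, or 5% beside the same 12.4%. AML1-ETO windows with N-CoR or p300 were nearest to 23.7% of all coding genes. The lists are small and their intervals wide, and gene length and flanking sequence were not taken into account.

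**Figure D5:**
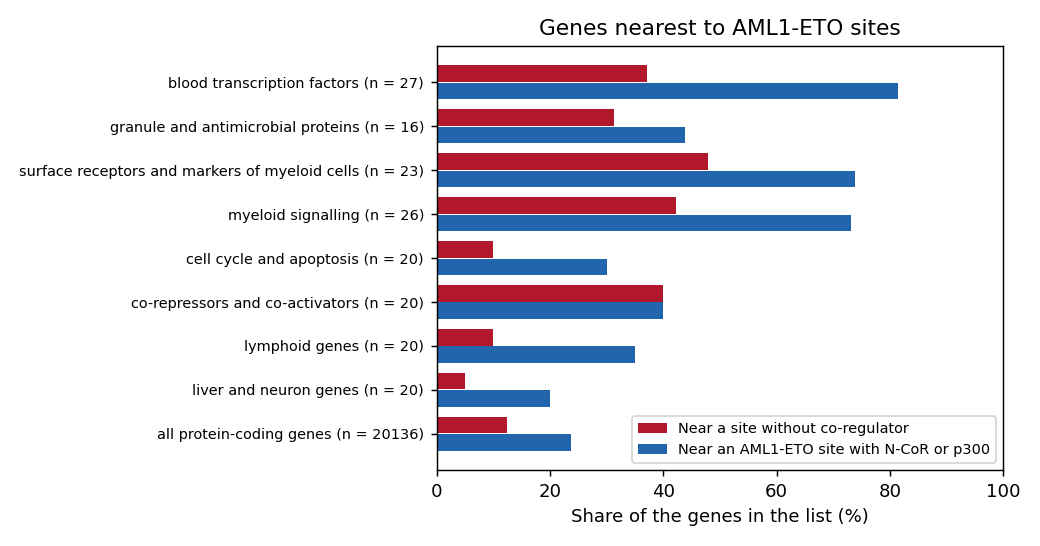
Share of the genes of each list (%) that are the nearest coding gene of a site without a co-regulator (red) or of an AML1-ETO window with N-CoR or p300 (blue); n is the number of genes. The red bars are at 47.8% for surface receptors and 12.4% for all coding genes, and for co-repressors and co-activators both bars are at 40%.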

How the data were processed

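ChIP-seq libraries were made in Kasumi-1 cells, with 2 biological replicates per antibody. The authors aligned reads with Bowtie 0.12.8, allowing 2 mismatches, to hg19 (GRCh37), pooled the replicates and called peaks with MACS2 2.0.10.20131216 at p < 1e-20. CASAVA 1.6 is also named in the submitters' processing notes. The control used in peak calling is not given in the sources used here. The deposited lists hold positions only, as 100 bp windows with a numbered name and no score, height or p-value, so the depth behind a peak is unknown. Names in the N-CoR list begin with eto, and those in the p300 and H3K4me3 lists with aml1. Each list was taken as its label gives it. H3K27me3 and input were not analysed here.

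Windows that shared 1 bp or more were counted as overlapping. Transcription starts, elements and nearest protein-coding genes came from GENCODE release 44 lifted to GRCh37 (254413 transcripts). Motifs were searched on both strands within 50 bp of the summit. Shares carry exact Clopper-Pearson 95% intervals and differences Newcombe intervals, and each was recomputed per chromosome (23, without Y). With 1 pooled list per antibody no test between libraries was made. The members, gene lists and comparisons were chosen with earlier results of these data known. The sites named are the 5 lowest-numbered near and far from starts, the 5 nearest to either side of the rule, the 10 genes with most sites (ties by number) and the genes of the lists. Overlap and motif counting and interval coverage were tested on simulated data. Alternatives were other window widths, a stricter absence of co-regulators, chromosomes left out, the first 5000 windows, and other distances, motifs and gene assignments. Sequences were read with samtools 1.23.1 and pysam 0.24.0, values were computed in Python 3.11.15 with SciPy 1.17.1 and numpy 2.4.6, and plots were drawn with matplotlib 3.10.9. The result of a further gene list, and some genes of the others, are not reported here.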

Additional observations from a re-analysis of the deposited data

How the results depend on the processing

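No paired analysis was possible because each antibody has 1 list of pooled replicates. Alternatives with a stricter peak threshold were replaced by the first 5000 windows of the AML1-ETO order, since the lists carry no score. Of 152 values recomputed for 17 results, 105 stayed within the interval of the reported value (or within 1.5 times, for counts), 45 moved out of it and 2 changed sign. Leaving out chromosomes 8 and 21, or any 1 chromosome, kept each value within its interval, but without chromosome 6 or 17 the PU.1 difference from co-regulator-bound sites (-1.87 or -1.97 points) had an interval that included 0. The Runx share stayed above both comparison classes under every alternative run; centring on the AML1 summit gives no value for AML1-ETO alone.

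Windows of 25 bp to either side gave differences from co-regulator-bound sites of -1.24 points for promoters and -1.78 for H3K4me3, both with intervals that included 0, and 15.3 for Runx, and made that from AML1-ETO alone -10.6 for H3K4me3. The median place became 44.7% of the list, the AML1 to AML1-ETO distance 18 bp and the distance to a co-regulator 19155 bp. Windows of 250 bp to either side gave 22.0% at promoters, 12.9% near H3K4me3 and 55.4% with Runx, with differences from co-regulator-bound sites of -14.1, -17.0 and 22.8 points, and a median of 37663 bp to a co-regulator. The PU.1 difference from co-regulator-bound sites then turned from -2.32 to 0.55 points; the cause was not tested.

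Requiring no co-regulator summit within 1000 bp gave 19.2% at promoters, 9.94% near H3K4me3, 57.2% with Runx and 28.8% with PU.1. The differences from co-regulator-bound sites were then -12.3 points for promoters, -14.4 for H3K4me3 and 22.6 for Runx, and the median distance to a co-regulator was 43288 bp. The PU.1 difference, -0.46 points, had an interval that included 0.

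Among the first 5000 windows, 696 sites near 665 genes remained, which follows from the smaller list. They had a median place of 18.8% of the list, 17.7% near H3K4me3, 54.6% with Runx and 19482 bp to a co-regulator. The differences from co-regulator-bound sites, -2.71 points for PU.1, -1.27 for H3K4me3 and 0.53 for promoters, had intervals that included 0, as did that of PU.1 from AML1-ETO alone, 4.02, and the promoter difference was of opposite sign to the reported -3.92; the cause was not tested.

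By construction, shares followed the distance or sequence asked for. Promoter shares were 22.2% at 500 bp, 34.4% at 2000 bp and 22.0% for coding starts, with -5.83 points from AML1-ETO alone at 500 bp. H3K4me3 shares were 14.6% at 500 bp, with -6.77 points from AML1-ETO alone, and 21.9% at 2000 bp. Runx shares were 60.6% within 100 bp and 65.4% with TGCGGT counted, the latter with differences of 21.2 points from co-regulator-bound sites and 30.4 from AML1-ETO alone. PU.1 shares were 39.6% within 100 bp, with -5.43 points from co-regulator-bound sites, and 7.17% for GAGGAAGT, with 1.39 points from AML1-ETO alone and -0.64 from co-regulator-bound sites, an interval that included 0. In the AML1 list the median place was 57.2%. Assigning sites to genes whose body lay within 5 kb gave 2143 genes in place of 2493, but it assigned only 2026 of the 3013 sites (67.2%).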
